A study of Mus musculus with 2 samples.

Results

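The miRNAs described here are miR-193a-3p, miR-193b-3p and miR-365-3p of the mouse, 3 of the 610 features on a miRNA array of liver RNA. They were chosen by their miRBase mature accessions, which are MIMAT0000223 for miR-193a-3p, MIMAT0004859 for miR-193b-3p and MIMAT0000711 for miR-365-3p. Each accession stood alone in 1 feature, and 0 of the 6 features that list several accessions held one of them. The deposited table gives accessions without names, and the 3 names came with the choice of these miRNAs. That choice was made with the measured values known, so the values below are a description and carry no test.

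The study asked which liver miRNAs depend on HNF4a, a nuclear receptor and one of the main transcription factors of hepatocytes. One group was Hnf4af/f, male mice with both copies of Hnf4a floxed, which served as controls. The other was Hnf4aΔH, males in which the gene is deleted in the liver. All mice were 45 days old and of mixed 129SV + C57BL/6 background. Each genotype was measured on 1 array, and neither the number of mice behind an array nor the Cre driver is given in the sources used here. With 1 array a group there is no replicate error, and a difference between the arrays holds genotype, animal and hybridization together. The array measures miRNAs, so loss of the Hnf4a transcript was not checked. The liver label was not checked against marker miRNAs either, because no other accession was paired with a name.

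miRNAs of this group come from paired hairpins: a miR-193 hairpin is followed by a miR-365 hairpin at each of 2 places in the mouse genome. A miRNA pairs with messenger RNAs chiefly through its seed, bases 2 to 8 from the 5′ end, and lowers the output of the messages it binds. miR-193a-3p and miR-193b-3p carry the same seed and are known for restraining messages such as those for cyclin D1, KIT and MCL1 in human cells. The miR-193b and miR-365 pair has been studied in mouse brown fat cells, among others.

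The mature sequences from RefSeq (GRCm38.p6) are shown because they separate what the 3 array features can and cannot tell apart. The seed is in capitals.

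miR-193a-3p: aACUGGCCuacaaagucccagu
miR-193b-3p: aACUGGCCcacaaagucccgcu
miR-365-3p: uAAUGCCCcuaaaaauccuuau

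All 3 miRNAs are 22 bases long. miR-193a-3p and miR-193b-3p are identical at 19 positions and differ at 3, all outside the seed. Counted from 1 at the 5′ end, with the base of miR-193a-3p first, the differences are U9C, A20G and G21C. Such close pairs are uncommon in the RefSeq table. Of 753 mouse mature miRNAs of this length, 73 (9.69%) had at least 1 partner that differed at 3 or fewer positions. The seed of the miR-193 pair, whose matching site in a message reads GGCCAGU, was carried by these 2 names alone among 1679 mature miRNA names. The seed of miR-365-3p, with the matching site GGGCAUU, was carried by 1 name, its own. No source used here gives the probe sequences, and whether the miR-193a-3p and miR-193b-3p probes read their targets apart was not tested.

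The 4 hairpins are shown because the mature miR-365-3p is the same at both places in the genome, while each miR-193 has a hairpin of its own. The mature 3p miRNA is in capitals.

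Mir193a: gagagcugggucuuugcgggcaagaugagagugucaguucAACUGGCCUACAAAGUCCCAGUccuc
Mir365-2: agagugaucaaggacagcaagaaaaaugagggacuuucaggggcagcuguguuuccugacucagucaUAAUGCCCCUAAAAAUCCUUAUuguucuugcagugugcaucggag
Mir193b: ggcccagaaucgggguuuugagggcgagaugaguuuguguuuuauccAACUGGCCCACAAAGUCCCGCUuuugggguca
Mir365-1: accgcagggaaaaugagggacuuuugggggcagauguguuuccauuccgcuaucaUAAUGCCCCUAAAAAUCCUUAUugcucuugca

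On chromosome 11, Mir193a lies at chr11:79711969-79712034 and Mir365-2 at chr11:79726400-79726511, both on the plus strand with 14365 bases between them. No annotated gene spans this pair (0 in the RefSeq table), and the nearest protein-coding gene before it, Rab11fip4, ends 13952 bases away. On chromosome 16, Mir193b lies at chr16:13449523-13449601 and Mir365-1 at chr16:13453840-13453926, also on the plus strand, with 4238 bases between them. Both chromosome 16 hairpins fall within the spans of 2 annotated long non-coding RNA genes, Gm32817 and Gm53058. Spans were matched by position alone, without regard to strand. The chromosome 11 pair had 0 other miRNA genes within 50 kb and the chromosome 16 pair had 1, Mir6365, whose array value was not analysed here.

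The predicted folds of the 4 hairpins, made with RNAfold, paired 17 to 20 of the 22 bases of the mature miRNA. Their minimum free energies were -30.4 kcal/mol for Mir193a, -34.1 for Mir193b, -34.5 for Mir365-1 and -39.7 for Mir365-2. Mir365-2 is also the longest hairpin, with 112 bases against 66, 79 and 87 for Mir193a, Mir193b and Mir365-1. The 5p arms of the 2 miR-365 hairpins differ at 3 of 23 bases, whereas their 3p arms are identical. The miR-365-3p signal therefore sums over the chromosome 11 and chromosome 16 hairpins, and the 5p arms were not analysed here.

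All 3 miRNAs gave lower signals in the Hnf4aΔH liver than in the Hnf4af/f liver. miR-193a-3p had an array intensity of 89.5 in Hnf4af/f and 22.3 in Hnf4aΔH. The Hnf4aΔH value was 24.9% of the Hnf4af/f value, a 4.02-fold lower intensity. On the scale of log2(intensity + 1), which understates changes of dim features, the level went from 6.50 to 4.54. The difference, Hnf4aΔH minus Hnf4af/f, was -1.96, the lowest of the 3. In bulk liver RNA, fewer cells that make a miRNA and less of it per cell cannot be told apart.

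miR-193b-3p, which carries the same seed, had an intensity of 64.1 in Hnf4af/f and 19.8 in Hnf4aΔH. The latter was 31.0% of the former, a 3.23-fold lower intensity. Its log2 level was 6.02 in Hnf4af/f and 4.38 in Hnf4aΔH, a difference of -1.64. The differences of the 2 miR-193 miRNAs lay 0.32 apart on the log2 scale, and without replicate arrays there is no spread against which to read that gap.

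miR-365-3p had an intensity of 16.1 in Hnf4af/f and 4.40 in Hnf4aΔH. It was 3.66-fold lower, at 27.3% of the Hnf4af/f intensity. Its log2 level went from 4.10 to 2.43, a difference of -1.66. This differed from that of miR-193b-3p by 0.02. The log2 difference of miR-193a-3p, though not its level, was lower than that of miR-365-3p by 0.29 (-0.29). With no pseudocount the differences were -2.01 for miR-193a-3p, -1.69 for miR-193b-3p and -1.87 for miR-365-3p. The order of the 3 differences was the same on that scale.

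**Figure D1:**
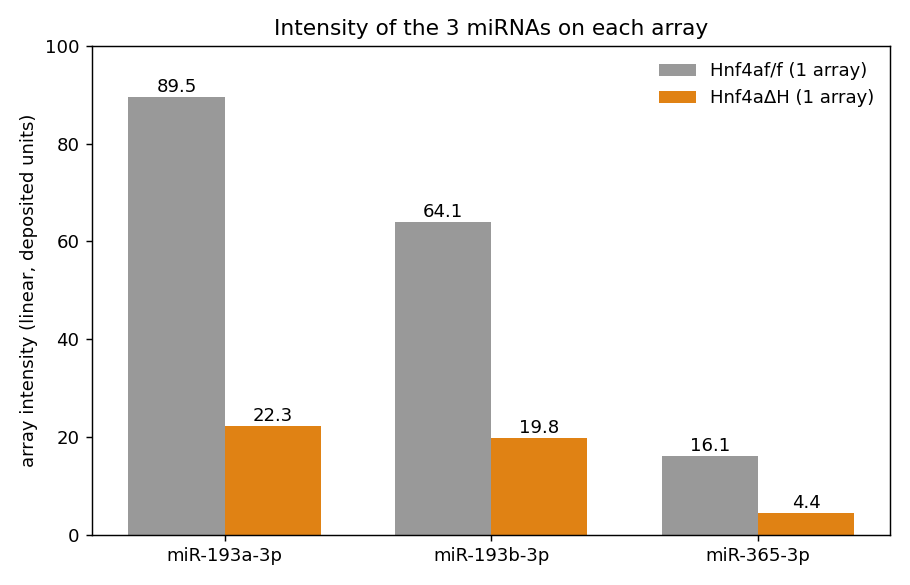
Array intensity on a linear scale (vertical axis, deposited units) of miR-193a-3p, miR-193b-3p and miR-365-3p, with a grey bar for the 1 Hnf4af/f array and an orange bar for the 1 Hnf4aΔH array. There are no error bars because each bar is a single measurement. The Hnf4aΔH bar is the shorter of each pair, at 22.3 against 89.5, 19.8 against 64.1 and 4.40 against 16.1.

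The 3 miRNAs also moved down the order of signals on their arrays. Probes differ in how brightly they report the same amount, so a rank orders signals and not abundances. Of the 610 features, 299 had a value in Hnf4af/f and 340 in Hnf4aΔH. miR-193a-3p ranked 41 in Hnf4af/f and 76 in Hnf4aΔH, and miR-193b-3p ranked 52 and 80 in the same order. miR-365-3p ranked 85 in Hnf4af/f and 152 in Hnf4aΔH.

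miR-365-3p thus lost 67 places, miR-193a-3p 35 and miR-193b-3p 28. Places lost do not follow the size of the difference, since features lie closer together at lower intensity. In Hnf4af/f miR-365-3p stood at 2.93 times the median intensity of the 258 features that both arrays reported, called the shared features. In Hnf4aΔH it stood at 0.706 times that array's median, below the middle of these features. The corresponding multiples were 16.3 and 3.58 for miR-193a-3p, and 11.6 and 3.19 for miR-193b-3p. The 3 miRNAs together made up 0.588% of all signal in Hnf4af/f and 0.164% in Hnf4aΔH. All 3 lay above the lowest value of the Hnf4aΔH array, 1.02. The value of miR-365-3p was 4.30 times that lowest value, that of miR-193b-3p 19.4 times and that of miR-193a-3p 21.8 times.

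**Figure D2:**
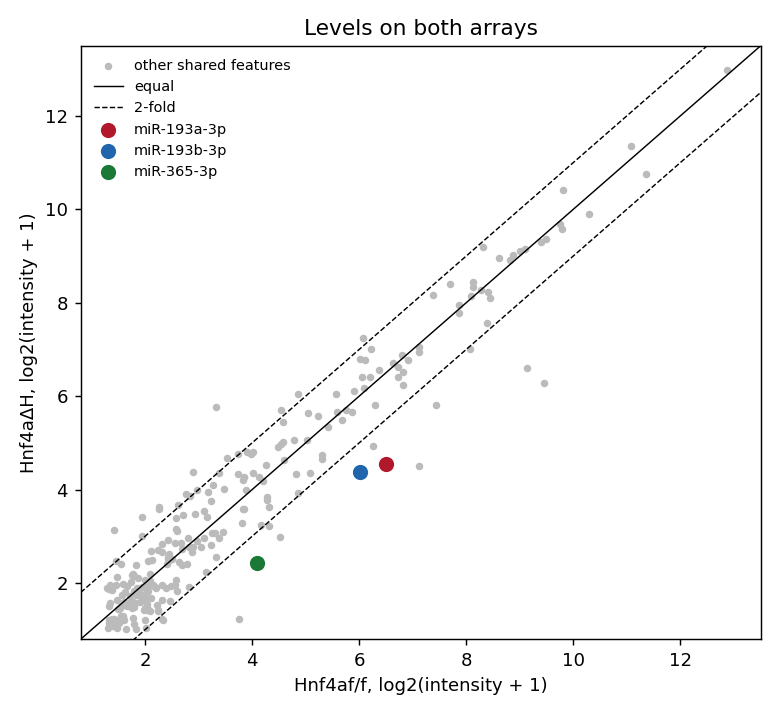
Level in Hnf4aΔH against level in Hnf4af/f, both as log2(intensity + 1), for the 258 shared features (1 array a genotype). Grey points are other features, the solid line marks equal levels and the dashed lines 2-fold differences. The 3 coloured points lie below the lower dashed line, with differences of -1.96, -1.64 and -1.66.

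Against all shared features, the 3 miRNAs lay near the low end. Of the 299 features with an Hnf4af/f value, those without an Hnf4aΔH value are left out of these counts and places. In Hnf4aΔH, 14 of the 258 (5.43%) were lower by 2-fold or more and 17 (6.59%) higher by as much. This balance depended on the processing, with 20 lower and 9 higher features after median centring, 15 and 10 after loess centring, 24 and 19 with no pseudocount, and 7 and 2 with a pseudocount of 16. All 3 miRNAs were among the 14 lower features and 0 among the 17 higher ones, which restates how they were chosen. Their median difference was -1.66, while the median over the shared features was -0.06, with quartiles at -0.33 and 0.36. Counted from the lowest difference, miR-193a-3p was number 5, miR-365-3p number 6 and miR-193b-3p number 7. The 4 features below them had differences of -2.51 or less, and the next feature above them stood at -1.62. As deposited, no other feature (0) had a difference between that of miR-193a-3p and that of miR-193b-3p. With quantile normalization the places of miR-193a-3p, miR-365-3p and miR-193b-3p were 5, 6 and 8, so the run broke. With a pseudocount of 16 their places were 4, 12 and 6.

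The shared features had a median log2 level 0.15 higher in Hnf4aΔH than in Hnf4af/f. Relative to this shift the differences were -2.11 for miR-193a-3p, -1.79 for miR-193b-3p and -1.82 for miR-365-3p. The median of the differences taken feature by feature was -0.06, of the opposite sign. It became -0.21 after median centring, so taking off this shift also lowers the typical feature. The summed intensities of the arrays were 28849 for Hnf4af/f and 28342 for Hnf4aΔH.

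**Figure D3:**
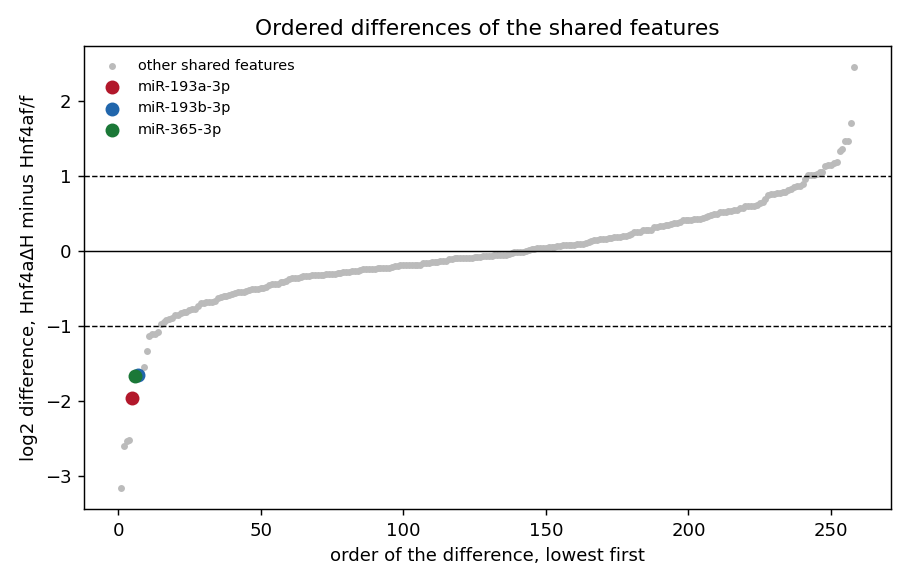
Log2 difference, Hnf4aΔH minus Hnf4af/f (vertical axis), of the 258 shared features in order from the lowest (horizontal axis), with dashed lines at 2-fold. Each point compares 1 array with 1 array. The coloured points hold places 5 (miR-193a-3p), 6 (miR-365-3p) and 7 (miR-193b-3p).

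Features of like brightness in Hnf4af/f show what a signal of that size became on the other array. The miRNAs described here were chosen as low features with these values known. Their being dimmer in Hnf4aΔH than most features of like brightness, here and in the next paragraph, therefore restates that choice. It is not separate evidence that the drop is unusual. The 10 shared features next above and the 10 next below miR-193a-3p in Hnf4af/f intensity ran from 64.1 to 138 there. In Hnf4aΔH these 20 features had a median intensity of 95.8, against 22.3 for miR-193a-3p, and 1 of them was dimmer than it. Their differences had a median of 0.01, and 2 of the 20 were at least 2-fold lower.

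The 20 such neighbours of miR-193b-3p had a median of 60.4 in Hnf4aΔH, against its own 19.8, and 0 of them were dimmer than it. Their differences ran from -1.32 to 1.18, and 1 of the 20 was at least 2-fold lower. The 20 neighbours of miR-365-3p, between 13.0 and 22.1 in Hnf4af/f, had an Hnf4aΔH median of 16.1 against 4.40 for miR-365-3p. Their Hnf4aΔH values ran from 6.92 to 29.4, so 0 of the 20 was as dim as miR-365-3p. Of these 20, 2 were at least 2-fold lower, with the lowest difference at -1.54 against -1.66 for miR-365-3p. These sets leave out the 3 miRNAs themselves, and those of miR-193a-3p and miR-193b-3p have 10 features in common.

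By closeness of both log2 levels, the 2 miR-193 miRNAs were near to each other, at a distance of 0.50 on the log2 scale. miR-193a-3p was the nearest of all single-accession features to miR-193b-3p. In the other direction 1 feature lay closer to miR-193a-3p. It was MIMAT0000616, at a distance of 0.46, with an intensity of 75.5 in Hnf4af/f, 29.6 in Hnf4aΔH and a log2 difference of -1.32. The nearest feature to miR-365-3p was MIMAT0000236, at a distance of 0.70, with intensities of 22.1 and 6.92 and a log2 difference of -1.54. These accessions were not paired with names in the table. Likeness over 2 arrays rests on 2 values a feature, and brightness differs between probes. The miRNAs described here were chosen as low features with these values known, so nearness to each other partly restates that choice. Whether the miR-193 probes also read each other's target was not tested.

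The start of Gm32817, the long non-coding RNA gene around the chromosome 16 pair, lies 1571 bases before Mir193b and 5888 bases before Mir365-1. Its RefSeq promoter window, chr16:13447702-13448001 (GRCm38.p6, plus strand), covers 250 bases before to 50 after the annotated start. It is shown because 2 of the hairpins that can give the lower signals lie downstream of it within the gene's span. Whether they are made from this start was not tested. CG dinucleotides are in capitals.

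Gm32817 promoter: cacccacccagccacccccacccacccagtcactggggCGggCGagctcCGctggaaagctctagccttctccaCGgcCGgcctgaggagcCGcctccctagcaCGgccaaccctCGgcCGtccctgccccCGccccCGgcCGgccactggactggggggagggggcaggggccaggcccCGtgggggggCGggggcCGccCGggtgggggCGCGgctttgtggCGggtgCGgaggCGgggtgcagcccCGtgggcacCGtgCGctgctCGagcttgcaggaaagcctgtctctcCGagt

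The window held 26 CG dinucleotides, where the median over 32817 promoter windows was 7 and 16.9% held at least as many. Its GC content was 76.7%. A pair of HNF4-type motifs was searched on both strands. CAAAGTCCA had 0 matches in the window and is held by 0.475% of all windows, and CAAAGGTCA also had 0 and is held by 0.478%. The absence of these letters from 300 bases says nothing of binding by HNF4a. No window was shown for the chromosome 11 pair, which no annotated gene spans.

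The way the arrays were scaled moved these differences little. All 3 miRNAs were lower by 2-fold or more with median centring, where 7.75% of the shared features were, and with centring on the 75th percentile, where 5.43% were. The same held with quantile normalization and with loess centring, each with 5.81% of the shared features that low, and with no pseudocount, where the share was 9.3%. With a pseudocount of 16, 2 of the 3 were as low, beside 2.71% of the shared features, and miR-365-3p stood at -0.65.

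**Figure D4:**
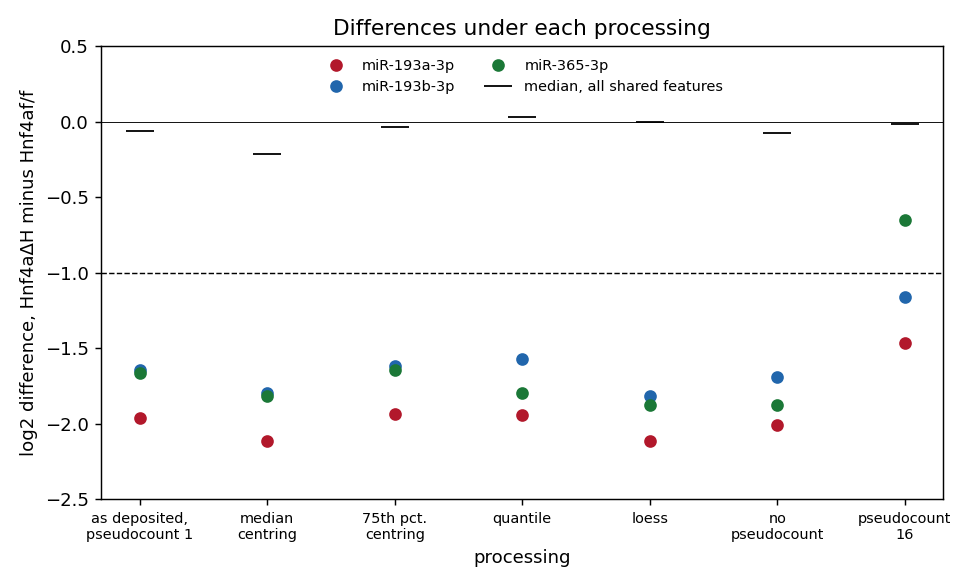
Log2 difference, Hnf4aΔH minus Hnf4af/f (vertical axis), of the 3 miRNAs under 7 ways of processing the 2 arrays (horizontal axis), with the median of the 258 shared features as a black dash and the 2-fold line dashed. The points are single values without replicate error. They lie below the 2-fold line except miR-365-3p at -0.65 with a pseudocount of 16.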

How the data were processed

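Total RNA of mouse liver was labelled with the dye Hy5 and hybridized in 1 channel a sample, per the labels' protocols. The authors deposited 1 table, in which each value is an intensity in linear units. The sources used here do not say how it was scanned, background-corrected, filtered and normalized, nor what a missing value means. Missing values were not replaced. Differences were taken of log2(intensity + 1), Hnf4aΔH minus Hnf4af/f, over the 258 features that both arrays reported, without further scaling. There is 1 array a group, so no test was made and precision is limited by the number of arrays.

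The named features were the 3 miRNAs and the 3 nearest single-accession features of each in the plane of both log2 levels, of which 2 are printed by accession. The members and lists were chosen with earlier results of these data known. Lists of cell type markers, brown fat miRNAs, other arms and neighbouring miRNAs were not applied, since no table used here pairs the other accessions with names. The motifs and the sets of 20 neighbours by brightness were chosen after the values were seen. Sequences, positions and promoter windows are those of RefSeq, assembly GRCm38.p6. All 3 names matched a mature sequence there. Alternatives were median, 75th percentile, quantile and loess (span 0.4) scaling, no pseudocount or one of 16, the 129 brighter features, and thresholds of 1.5-fold and 4-fold. The counting and scaling code was run on simulated arrays with known changes. Those arrays had no offset between them, so how well the scalings remove an offset was not tested. The tools were ViennaRNA 2.7.2 for folding, matplotlib 3.10.9, statsmodels 0.14.6 for loess, numpy 2.4.6 and pandas 2.3.3 under Python 3.11.15.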

Additional observations from a re-analysis of the deposited data

How the results depend on the processing

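No paired analysis was possible because there is 1 array a genotype, so leaving out a replicate was not possible either. The log2 differences of miR-193a-3p, miR-193b-3p and miR-365-3p, in that order, were -2.11, -1.79 and -1.82 with median centring. On the 75th percentile scale they were -1.94, -1.62 and -1.64, and they were -1.94, -1.57 and -1.80 with quantile normalization. They were -2.11, -1.82 and -1.88 with loess centring, -2.01, -1.69 and -1.87 with no pseudocount, and -1.46, -1.16 and -0.65 with a pseudocount of 16. None turned in sign, which the choice of low features and the small shift between the arrays made likely. A pseudocount of 16 is about the control intensity of miR-365-3p, so its difference shrinks most by construction. Counted from the lowest of the 258 shared features under these scalings and pseudocounts, miR-193a-3p held place 4 or 5, miR-193b-3p places 6 to 8 and miR-365-3p places 6 to 12. Among the 129 brighter features alone they held places 4, 6 and 5 in the order above. Among the shared features, the count at least 2-fold lower, 14 as reported, was 24 with no pseudocount and 7 with a pseudocount of 16. It was 38 at 1.5-fold and 4 at 4-fold. None of the 3 miRNAs was among those 4, since miR-193a-3p, the lowest, stood at -1.96 on the log2(intensity + 1) scale. The count at least 2-fold higher, 17 as reported, was 9 with median centring, 10 with loess centring and 2 with a pseudocount of 16. It was 39 at 1.5-fold and 1 at 4-fold. The share of higher features among those past 2-fold was 54.8% as deposited and 31.0% with median centring. Ranked among shared features alone, miR-365-3p stood at 151 on the liver-null array in place of 152.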
